A study of Mus musculus with 8 samples.

Results

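Basophil and mast cell progenitors were described in single-cell RNA libraries from mice. The labels give the sort gate as Epcr+Lin-Sca-1+Kit+, which is used to enrich blood stem cells. Members were chosen on raw counts of unique molecular identifiers (UMIs), each of which stands for 1 captured RNA molecule. A member had at least 2 UMIs of Mcpt8 or of Prss34, at least 1 UMI of Cpa3 or of Ms4a2, and none of Cd79a or Elane, the last pair marking B cells and granulocyte progenitors. In all, 190 of 31952 kept cells met the rule, in libraries of liver (34 members), spleen (86) and bone marrow (69) from wild-type mice at postnatal day 2 (P2), and in a wild-type library of embryonic day 19 (E19), where 1 cell met it. Over all 6 gene expression libraries 37147 cells were kept.

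Each P2 tissue library pooled 7 mice and was batch 1 in the labels. The E19 library was batch 2, and its labels name bone marrow in one field and fetal liver in another. The other 2 libraries, batch 3, mixed bone marrow and spleen cells of 2 P2 pups with the genotype Tppp3CreER LSLTdTomato, given tamoxifen at P0, with each pup's tdTomato-positive and tdTomato-negative cells placed in different tubes. The CreER of these pups is named for Tppp3 in the labels, and tdTomato is a red fluorescent reporter that Cre switches on. All groups shared selection on CD117 (Kit) beads, lysis of red cells and the sort. There was 1 library for each P2 tissue and for E19, so differences between tissues or ages had no replicate check and no p-value, and all intervals below cover counting error only.

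Basophils and mast cells are granulocytes that carry the high-affinity IgE receptor and release histamine, lipid mediators, proteases and cytokines when that receptor is cross-linked. Basophils mature in the bone marrow and circulate, whereas mast cells complete their maturation in tissues under the Kit ligand. In mice both derive from progenitors that express GATA2, and interleukin 3 expands both. Mcpt8 and Prss34 encode granule proteases known mainly from mouse basophils, Cpa3 a carboxypeptidase of mast cell and basophil granules, and Ms4a2 the beta chain of the IgE receptor.

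The genes that selected the cells lie on different chromosomes of the GRCm38 build. In the GENCODE vM21 annotation Mcpt8 (ENSMUSG00000022157) spans chr14:56082166-56085273 on the minus strand, within the chromosome region that also holds other chymase-type proteases. Prss34 (ENSMUSG00000056399) spans chr17:25298394-25300165 on the plus strand, Cpa3 (ENSMUSG00000001865) chr3:20215620-20242181 on the minus strand, and Ms4a2 (ENSMUSG00000024680) chr19:11615523-11623719 on the minus strand. All 4 are annotated as protein-coding.

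The sequence before the start of these genes is shown because the members share high levels of Gata2 and Runx1, whose proteins bind DNA at short motifs. Fcer1a and Cd200r3 are added as the IgE receptor's alpha chain and a receptor that led the genes outside the rule. Each stretch is RefSeq sequence of build GRCm38.p6, read 5′ to 3′ on the gene's own strand, and holds the 250 bases before the RefSeq start. For Mcpt8 the stretch stops at 174 bases, where the GENCODE gene begins. Capitals mark 2 kinds of motif, searched on both strands. The GATA-type motif was spelled AGATAA, and a first letter of T in place of A was also accepted. The RUNX-type motif was spelled TGTGGT.
Mcpt8: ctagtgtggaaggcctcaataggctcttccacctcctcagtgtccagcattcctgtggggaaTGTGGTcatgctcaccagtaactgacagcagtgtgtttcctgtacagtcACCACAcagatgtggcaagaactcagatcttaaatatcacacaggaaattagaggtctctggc
Prss34: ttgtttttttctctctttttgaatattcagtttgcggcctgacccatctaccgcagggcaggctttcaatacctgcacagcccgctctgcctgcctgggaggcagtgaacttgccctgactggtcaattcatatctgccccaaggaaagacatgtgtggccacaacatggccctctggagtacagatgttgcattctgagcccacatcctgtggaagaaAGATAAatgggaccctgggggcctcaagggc
Cpa3: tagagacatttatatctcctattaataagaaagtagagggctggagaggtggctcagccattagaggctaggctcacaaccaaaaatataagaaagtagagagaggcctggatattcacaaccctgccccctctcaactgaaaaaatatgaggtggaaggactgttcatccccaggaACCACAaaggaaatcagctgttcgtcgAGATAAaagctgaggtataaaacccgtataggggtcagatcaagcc
Ms4a2: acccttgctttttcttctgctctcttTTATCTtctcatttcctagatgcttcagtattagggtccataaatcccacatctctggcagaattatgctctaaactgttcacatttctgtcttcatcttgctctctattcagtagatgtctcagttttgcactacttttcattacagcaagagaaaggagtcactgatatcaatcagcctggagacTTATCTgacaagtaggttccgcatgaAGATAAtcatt
Fcer1a: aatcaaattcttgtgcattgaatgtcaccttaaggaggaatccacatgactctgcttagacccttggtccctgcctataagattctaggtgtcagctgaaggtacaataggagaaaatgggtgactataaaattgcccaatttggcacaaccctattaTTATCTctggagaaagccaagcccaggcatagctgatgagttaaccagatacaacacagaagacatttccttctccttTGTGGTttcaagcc
Cd200r3: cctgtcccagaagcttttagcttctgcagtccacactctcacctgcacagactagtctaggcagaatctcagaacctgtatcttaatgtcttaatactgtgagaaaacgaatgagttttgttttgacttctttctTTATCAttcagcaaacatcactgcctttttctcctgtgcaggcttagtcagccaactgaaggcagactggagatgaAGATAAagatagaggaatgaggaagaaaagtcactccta
The regions are chr14:56085274-56085447 (minus strand) for Mcpt8, chr17:25298144-25298393 (plus) for Prss34, chr3:20242182-20242431 (minus) for Cpa3, chr19:11623720-11623969 (minus) for Ms4a2, chr1:173227230-173227479 (minus) for Fcer1a and chr16:44943428-44943677 (plus) for Cd200r3. Ms4a2 held 3 GATA-type matches, Cd200r3 held 2, and Prss34, Cpa3 and Fcer1a held 1 each. Mcpt8 held 2 RUNX-type matches and no GATA-type match in the 250 bases. Of the 4 selecting genes and the 25 genes named below as highest in members, 27 had a RefSeq promoter, with 32 promoters between them. A GATA-type match was present in 9 of the 32 (28.1%), against 16.6% of all 32851 promoters over the same 250 bases. A RUNX-type match was present in 6 of the 32 (18.8%), against 14% of all promoters. Such a match describes letters in this window and is not a measured binding site.

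Members were rare in every P2 library. They made up 0.603% of 5634 kept cells in P2 liver (exact binomial 95% interval 0.418 to 0.842), 0.951% of 9043 in P2 spleen (0.761 to 1.17) and 1.05% of 6550 in P2 bone marrow (0.821 to 1.33). All 3 intervals overlapped one another, that of P2 liver and that of P2 bone marrow only slightly. In E19 the share was 0.00932% of 10725 cells (0.000236 to 0.0519), below all 3 P2 intervals. Batch, mouse pool, age, the tissue named in the labels and the version of the counting software changed together between P2 and E19. These cannot be told apart. The tissue order depends on the rule. Without the exclusion of Cd79a and Elane the shares were 1.62% in P2 liver, 1.54% in P2 spleen and 2.05% in P2 bone marrow.

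The exclusion removed about as many cells as it left. It took out 57 cells in P2 liver, 53 in P2 spleen and 65 in P2 bone marrow, of which 56, 49 and 63 had Elane UMIs. These cells had a median of 2.00 Mcpt8 UMIs in P2 liver, 3.00 in P2 spleen and 3.00 in P2 bone marrow, whereas members had medians of 103, 37.5 and 17.0. Just outside the protease threshold, 3 cells in P2 liver, 28 in P2 spleen and 27 in P2 bone marrow had 1 UMI as their higher protease count, against 1, 7 and 5 members just inside it at 2 UMIs. Among cells without Cd79a or Elane, liver members were therefore mostly far above the threshold, and spleen and bone marrow had more cells close to it. The excluded cells, with their low Mcpt8 medians, are not in these counts. The part of the exclusion in this difference between tissues was not tested.

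Members were of ordinary depth for their libraries. Their median UMI count was 8952 in P2 liver, 6181 in P2 spleen and 7473 in P2 bone marrow, against 8166, 7456 and 8278 in the rest. The 4 libraries held 64757553 to 87254828 UMIs each, and the tubes 56010320 and 58350172. Pairs of the 4 libraries shared 11 to 25 cell barcodes and the 2 tubes shared 3, and no member was among them. Scrublet's highest doublet scores took in 1 of 34 members in P2 liver, 10 of 86 in P2 spleen and 4 of 69 in P2 bone marrow. They took in 5.50%, 8.42% and 6.44% of all kept cells of these libraries.

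The protease genes varied widely from member to member. Mcpt8 and Prss34 together reached a median of 22759 CPM per member (CPM, the UMIs of a gene per 1000000 UMIs of the cell or group) in P2 liver, 6382 in P2 spleen and 4848 in P2 bone marrow. Values ran from 122 to 48514 CPM in P2 liver, 113 to 54416 in P2 spleen and 118 to 47991 in P2 bone marrow, so the tissues overlapped over almost the whole range. At least 2 UMIs of both proteases were present in 27 of 34 liver, 61 of 86 spleen and 52 of 69 bone marrow members. Mcpt8 alone reached 2 UMIs in 5, 23 and 14 members, and Prss34 alone in 2, 2 and 3.

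**Figure D1:**
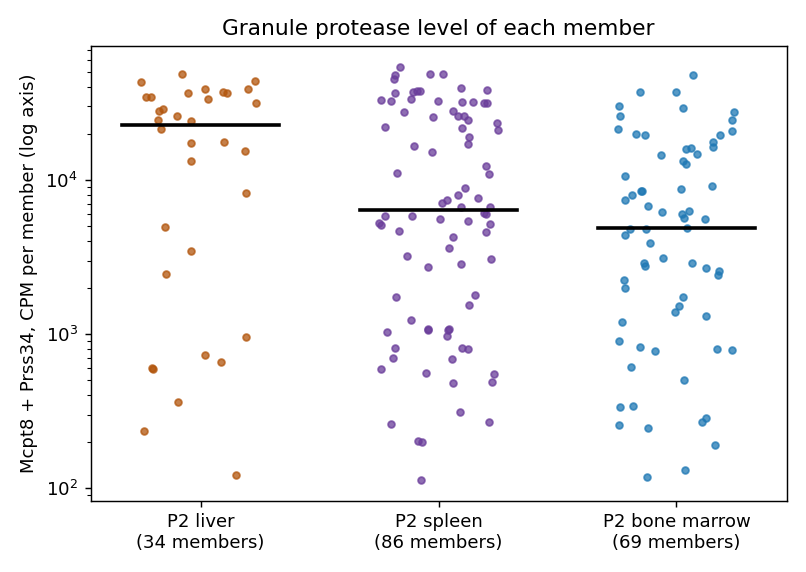
Each point is 1 member, placed by its Mcpt8 and Prss34 UMIs in CPM (log axis) in each P2 library, and the bar is the median: 22759 in P2 liver, 6382 in P2 spleen and 4848 in P2 bone marrow. The 3 clouds overlap, and the liver points crowd toward the top.

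Over the summed UMIs of all members of a library, Mcpt8 stood at 9509 CPM in P2 liver, 6493 in P2 spleen and 3290 in P2 bone marrow. Prss34 stood at 7172, 3734 and 3040 CPM. Both were highest in liver members and lowest in bone marrow members. Cpa3 was level across tissues, at 1467, 1563 and 1451 CPM, and so was Ms4a2, at 760, 769 and 781 CPM. As these genes chose the cells, their levels are a description. UMIs are counted at the 3' end, so these levels in CPM were not divided by gene length.

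Gata2, a zinc finger factor needed for basophil and mast cell development, was not used by the rule and marked the members in every library. It stood at 638 CPM (counting interval 556 to 728) in P2 liver members, 475 (423 to 530) in P2 spleen members and 416 (366 to 471) in P2 bone marrow members, against 9.85, 20.5 and 23.8 CPM in the rest. At least 1 Gata2 UMI was seen in 33 of 34, 75 of 86 and 64 of 69 members. With every cell thinned to 2000 UMIs the shares of members were 73.5%, 64.0% and 53.6%, against 1.43%, 4.31% and 4.46% of the rest and 0.281%, 0.756% and 0.860% of cells with 2 or more Cd79a UMIs, a B cell set that should lack the gene. Those Cd79a cells had median depths of 4947, 3824 and 5614 UMIs before thinning.

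Across all genes, 894 of 15835 were higher in members, a background of 5.65%, and 699 were lower, a background of 4.41%. A gene counted as higher or lower where its CPM differed at least 2-fold in the mean over the 3 P2 libraries and in the same direction in each, with at least 50 UMIs in all. The rule chose these cells on genes of the same comparison, so the counts are a description. The 25 genes outside the rule with the highest smallest fold over the libraries held effector genes of basophils and mast cells, surface receptors and enzymes.

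Fcer1a, the ligand-binding chain of the IgE receptor, had the highest such fold, with 104, 36.6 and 30.1 CPM in members of P2 liver, spleen and bone marrow against 0.225, 0.119 and 0.0312 CPM in the rest. It was seen in few members, 9 of 34, 11 of 86 and 12 of 69. Cd200r3, an activating receptor of mouse basophils and mast cells, was broader, with UMIs in 27, 59 and 44 members. It had 531, 372 and 303 CPM in members against 2.13, 2.72 and 3.09 CPM in the rest. Slc26a3, an anion exchanger better known from the gut, had 69.6, 30.5 and 60.2 CPM in members against 0.241, 0.0715 and 0.172 CPM in the rest.

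Enzymes and structural proteins were also among the leading genes. Cyp11a1, which starts steroid synthesis from cholesterol, had 249, 298 and 254 CPM in members against 1.73, 1.30 and 1.96 CPM in the rest. Alox5, the 5-lipoxygenase of leukotriene synthesis, had 258, 195 and 164 CPM in members against 1.83, 1.24 and 1.73 CPM in the rest. Csrp3, a LIM protein known from striated muscle, had 194, 229 and 288 CPM in members against 2.26, 2.37 and 4.13 CPM in the rest. Each of these was at least 69.6-fold higher in every P2 library, and Cyp11a1 was seen in 27, 63 and 52 members.

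The other named genes higher in members were Il6, Cdh1 (E-cadherin), Ccr1 (a chemokine receptor), the chemokines Ccl6 and Ccl3, Csf1 (macrophage colony-stimulating factor), Stx3 (a syntaxin of vesicle fusion), Far2, Cyp4f18, Hdc, Rnase12, Papss2 (which makes the sulfate donor), Padi2, Cpne2, Jazf1, the long non-coding RNA 4930519L02Rik and Gata2. Their mean folds ran from 14.7 for Jazf1 to 279 for Il6. Lilr4b and Lilrb4a, near-identical neighbouring receptor genes whose reads may be split between them, had mean folds of 115 and 35.9 and are uncertain as single genes. In the rest, cells with a UMI of Mcpt8 or Prss34 hold part of these RNAs: without such cells the mean fold of Fcer1a was 1389 in place of 456, and that of Slc26a3 was 745 in place of 331.

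**Figure D2:**
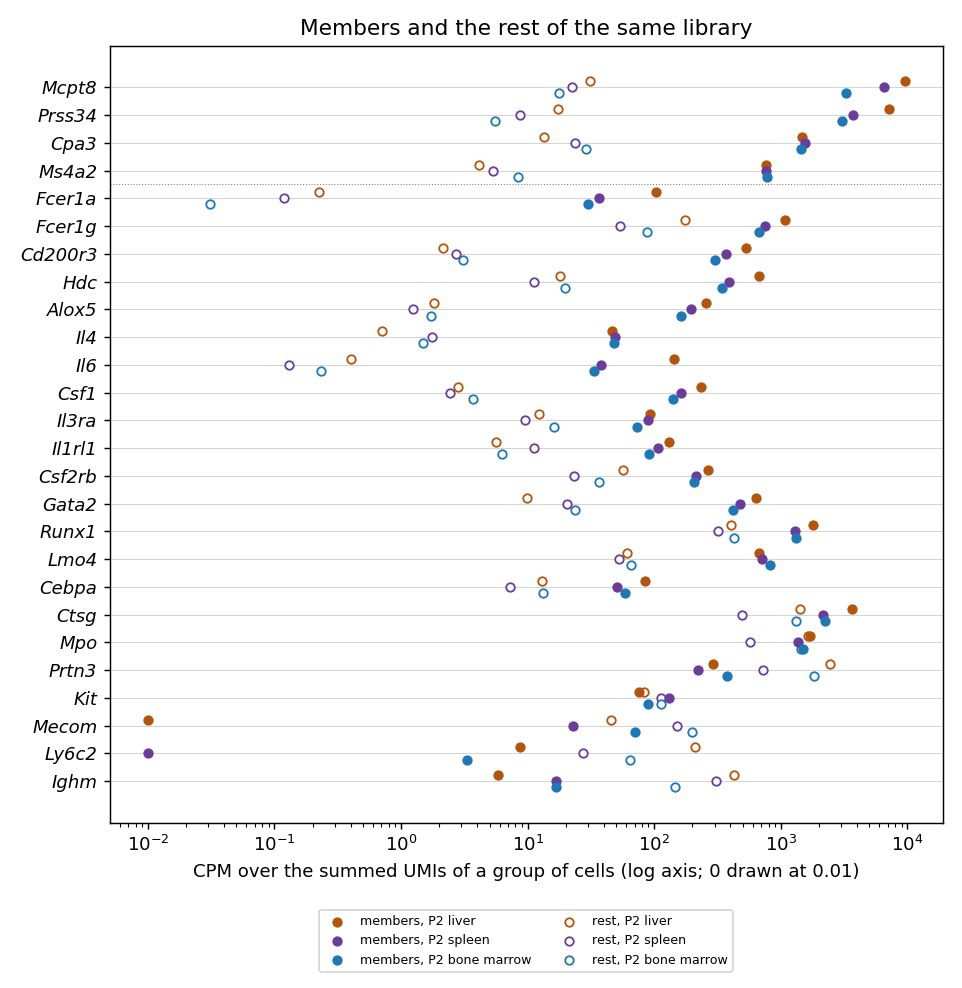
Levels in CPM (log axis, 0 drawn at 0.01) over the summed cells of each P2 library, with filled points for members and open points for the rest. Genes above the dotted line chose the cells. Kit overlaps between members and rest, Prtn3, Mecom, Ly6c2 and Ighm lie lower in members, and Fcer1a through Cebpa lie higher in members of each library.

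Of 22 basophil genes in the list used, 21 had enough UMIs to test and 19 were higher, with a median log2 fold of 4.84 against 0.00 over all tested genes. That count includes Mcpt8, Prss34 and Ms4a2, which chose the cells. Itga2, the integrin alpha 2 chain bound by the DX5 antibody that marks basophils, had 89.9, 71.7 and 43.5 CPM in members against 2.86, 5.68 and 3.88 CPM in the rest. Grm6, a glutamate receptor whose transcript is known from mouse basophils, had 43.5, 32.0 and 23.4 CPM in members against 0.337, 0.322 and 0.203 CPM in the rest. Pld4 was lower, with 2.90, 3.05 and 3.34 CPM in members against 40.7, 14.4 and 10.8 CPM in the rest, and Cd69 was not called in either direction.

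Of 28 mast cell genes, 18 could be tested, 11 were higher and none was lower, with a median log2 fold of 3.19. Those higher were largely genes that basophils also use: Cpa3, Hdc, Slc18a2, Itgb7, Rab27b, Il1rl1, Ndst2, Srgn, Cyp11a1 and Cd63. Gzmb was called higher as well, but only 1 of 34 liver, 8 of 86 spleen and 3 of 69 bone marrow members had a UMI of it. The genes that define mature connective tissue and mucosal mast cells behaved differently. Tpsab1, Tpsg1 and Mcpt9 were at 0 in members of all 3 P2 libraries, Tpsb2 was at 0 in P2 liver and P2 spleen members, and the bone marrow value for Tpsb2 came from 1 cell. Cma1 and Mcpt4 were seen in a few members described further on. Among basophil genes outside the rule, Gata2 and Cd200r3 were seen in most members of each P2 library, and Fcer1a and Il4 in a minority.

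Of 17 genes of the IgE receptor and its signalling, 10 were higher and none lower, a count that includes Ms4a2 of the rule. Fcer1g, the gamma chain shared with Fc gamma receptors, had 1076, 749 and 669 CPM in members against 175, 53.4 and 88.2 CPM in the rest. Lat, an adaptor downstream of the receptor, had 116, 68.7 and 48.5 CPM in members against 3.95, 11.9 and 10.1 CPM in the rest, and its relative Lat2 was 5.41-fold higher on average. Gab2, Lcp2 and Fyn were 3.00-fold, 2.50-fold and 2.34-fold higher. The kinases Lyn and Syk did not pass, with mean folds of 0.723 and 0.674 and directions that differed between libraries.

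Of 14 testable genes of mediator synthesis, 7 were higher and 1, Ptgs1 (cyclooxygenase 1), was lower. Hdc, which makes histamine, had 673, 388 and 346 CPM in members against 17.9, 11.2 and 19.8 CPM in the rest, and Slc18a2, which loads histamine into granules, was 11.7-fold higher on average. Alox5ap, the partner of 5-lipoxygenase, had 725, 592 and 563 CPM in members against 138, 77.0 and 131 CPM in the rest. Srgn, the core protein of granule proteoglycan, had 2841, 2342 and 2677 CPM against 811, 478 and 872 CPM in the rest. Ltc4s and Hpgds, the enzymes for leukotriene C4 and prostaglandin D2, were near 0 in members, at most 2.90 and 5.8 CPM.

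Of 19 cytokine genes, 12 could be tested, 8 were higher and Vegfa was lower. Il4, the cytokine by which basophils are best known, had 46.4, 48.8 and 48.5 CPM in members against 0.706, 1.76 and 1.5 CPM in the rest. It was seen in 12, 28 and 20 members. Il13 had too few UMIs to be tested, at 2.90, 1.53 and 1.67 CPM with 1 positive member in each library. Csf1 had 235, 163 and 140 CPM in members against 2.82, 2.45 and 3.70 CPM in the rest. Il5, Il3, Csf2, Ccl1, Ccl2, Ccl7 and Lif had no UMI in any P2 member.

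Among 22 cytokine receptors, 8 were higher and 4 lower. Il3ra, the specific chain of the interleukin 3 receptor, had 92.8, 88.5 and 73.6 CPM in members against 12.3, 9.54 and 16.1 CPM in the rest, and Csf2rb, the shared signalling chain, had 264, 214 and 206 CPM against 56.7, 23.4 and 36.6 CPM. Il1rl1, the interleukin 33 receptor, was 14.2-fold higher on average, Il18rap 8.22-fold and Crlf2, the receptor for thymic stromal lymphopoietin, 2.63-fold. The receptors lower in members were Epor, Flt3, Csf1r and Csf3r, which serve erythroid, lymphoid or dendritic, macrophage and neutrophil cells. Kit, the receptor on which the cells were sorted, was close to the rest, with 75.4, 131 and 88.6 CPM in members against 82.4, 113 and 113 CPM.

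Lineage factors divided in the members. Of 32 tested, 8 were higher and 6 lower. Runx1 had 1809, 1299 and 1324 CPM in members against 402, 317 and 427 CPM in the rest, and Lmo4, a LIM-only cofactor, had 675, 713 and 816 CPM against 61.0, 52.6 and 65.2 CPM. Cebpa, needed for granulocyte fate, had 84.1, 50.4 and 58.5 CPM in members against 13.0, 7.29 and 13.2 CPM in the rest. Cebpb, Nfil3, Ikzf2 and Id1 were also higher, and Irf8, Cebpe, Zfpm1, Lmo2, Tcf4 and Klf1 were lower. Irf8, which directs monocyte and dendritic fate, had 14.5, 27.5 and 16.7 CPM in members against 286, 77.7 and 91.6 CPM in the rest. Mitf, the mast cell factor, and Gata1 did not pass, with mean folds of 1.51 and 1.52.

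Lists of other lineages differed in direction. Of 16 tested erythroid genes 15 were lower, with Gata1 the exception, and 9 of 12 B cell genes were lower. The rule required Cd79a at 0 in members and left B cells in the rest, and the part of that exclusion in the B cell count was not tested. The neutrophil list had 7 of 15 genes lower and Ctsg higher, and the monocyte, macrophage and dendritic list had 7 of 15 lower and Adgre1, Cx3cr1 and Ccr2 higher. Of 18 stem cell genes 5 were lower and Angpt1 was higher. Of 10 megakaryocyte genes 3 were higher (Itga2b, Gp1ba and Plek) and Pf4 was lower. The call of Gp1ba rests on few UMIs, at 2.90, 3.05 and 1.67 CPM in members. Of 13 T, NK and innate lymphoid genes 3 were higher (Nkg7, Rora and Thy1) and Trbc2 was lower. None of 13 hepatocyte and stroma genes was called. Among the 10 named genes with the lowest mean folds were the B cell genes Ebf1, Igkc, Vpreb3 and Ighm, the neutrophil genes S100a8, S100a9, Stfa1 and Cstdc5, and Ly6d and Ly6c2. Ebf1 had 2.90, 6.10 and 5.02 CPM in members against 835, 257 and 512 CPM in the rest. For Cstdc5 and Stfa1 close paralogs exist, so reads may be split among them.

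Granule genes shared with neutrophils did not follow 1 direction. Ctsg (cathepsin G) was higher, with 3621, 2162 and 2214 CPM in members against 1419, 495 and 1329 CPM in the rest. Mpo (myeloperoxidase) was close to the rest in P2 liver and P2 bone marrow, with 1693 and 1485 CPM against 1635 and 1438 CPM, and had 1361 CPM against 574 CPM in P2 spleen. Prtn3 (proteinase 3) was lower, with 290, 220 and 373 CPM in members against 2460, 723 and 1823 CPM in the rest. The rule required Elane at 0, so the low Prtn3 stands beside the removal of cells with a related granule gene, and the part of that removal was not tested.

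Of the genes of the positive sort markers, Procr and Ly6a were close to absent in the RNA of members, whereas Kit was seen in 9, 36 and 29 of them. Procr, which encodes EPCR, had 0, 3 and 0 UMIs over all members of P2 liver, P2 spleen and P2 bone marrow, and Ly6a, which encodes Sca-1, had 0, 2 and 2. With cells thinned to 2000 UMIs, Ly6a was seen in 0 of 34, 0 of 86 and 0 of 69 members, against 2.75%, 6.03% and 5.43% of the rest. For the bone marrow members the exact binomial interval allows a share with a UMI of up to 5.21%. Procr was rare in the rest as well, at 0.321%, 1.33% and 2.18% of cells. The gate acts on protein, which was not measured here.

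Members were compared with 3 other sets from the same libraries: granulocyte progenitors (at least 2 Elane UMIs and 1 of Mpo), megakaryocyte-primed cells (at least 2 Pf4 UMIs and 1 of Itga2b) and stem cells (Mecom and Hlf), all with no Mcpt8, Prss34 or Cd79a UMI. Granulocyte progenitors numbered 760, 376 and 678 cells in P2 liver, P2 spleen and P2 bone marrow, stem cells 180, 1681 and 1650, and megakaryocyte-primed cells 12, 39 and 11. Members stood above all 3 sets in Gata2: megakaryocyte-primed cells had 154, 83.4 and 104 CPM, stem cells 49.7, 43.0 and 38.3 CPM, and granulocyte progenitors 2.31, 9.51 and 7.18 CPM.

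Other genes placed members between or beside these sets. Ctsg had 3621, 2162 and 2214 CPM in members, against 3599, 3062 and 4187 CPM in granulocyte progenitors and 44.0, 25.7 and 47.2 CPM in stem cells. Members were level with granulocyte progenitors in P2 liver and below them in P2 spleen and P2 bone marrow. Angpt1 in members, at 493, 465 and 649 CPM, was above granulocyte progenitors, at 13.2, 62.0 and 71.9 CPM, and below stem cells, at 1020, 931 and 916 CPM, and megakaryocyte-primed cells, at 1293, 726 and 1050 CPM. Itga2b (CD41) in members, at 81.2, 38.2 and 41.8 CPM, was above stem cells, at 5.71, 5.19 and 4.18 CPM, and below megakaryocyte-primed cells, for which it was a selecting gene. Pf4 and Itga2b chose 1 set, Elane and Mpo another, and Mecom and Hlf the last. The level of such a gene in the set it chose was raised by the choice, which holds for Itga2b in megakaryocyte-primed cells.

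Cell cycle genes differed little from the rest. Mitotic (G2/M) genes summed to 10057, 9384 and 9641 CPM in members against 8901, 9828 and 9467 CPM in the rest. Of 52 such genes none was called in either direction, and of 42 S phase genes 1 was higher (E2f8) and 2 were lower (Cdca7 and Exo1). Members were thus not set apart from the rest by these lists, and both held cycling cells' transcripts such as Mki67, seen after thinning in 55.9%, 36.0% and 42.0% of members and 39.0%, 41.8% and 45.0% of the rest.

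Within members, the level of the proteases went together with other genes. The members of each P2 library were divided at their median Mcpt8 and Prss34 share into protease-rich and protease-poor members, a division chosen after values had been seen, and 11, 19 and 11 members of P2 liver, spleen and bone marrow lay within 1.5-fold of it. Of 5217 genes, 188 were higher in the protease-rich members, a background of 3.60%, and 256 were lower, a background of 4.91%, by the same rule over the 3 libraries. The groups differed in depth: median UMIs were 6879, 5153 and 5664 in the protease-rich members against 12807, 8349 and 10431 in the protease-poor members. Its part in the gene differences was not tested, beyond thinning all members to 2000 UMIs, after which 63 genes were higher and 42 lower of 1270 tested.

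Fcer1a, Cd200r3, several chemokine genes and both genes of the 5-lipoxygenase step were higher in the protease-rich members. Of 11 cytokine receptors 5 were higher and Kit was lower, and of 8 mediator synthesis genes 2 were higher (Alox5 and Alox5ap) and 1 was lower. Of 8 cytokine genes 4 were higher, and of 16 IgE receptor genes 4 were higher and none was lower. Of 20 testable basophil genes 12 were higher, 2 of them the proteases that made the division, and none was lower. Fcer1a had 268, 89.8 and 77.8 CPM in the protease-rich members against 4.67, 2.50 and 2.63 CPM in the protease-poor members, and only 1 UMI was counted in each protease-poor group. Ccl3 had 367, 156 and 224 CPM in the protease-rich members against 18.7, 15 and 10.5 CPM in the protease-poor members. Cd200r3 had 888, 773 and 623 CPM against 313, 115 and 119 CPM, and Fcer1g 1814, 1309 and 1140 CPM against 625, 391 and 398 CPM.

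The lipid enzymes followed the same direction. Alox5 had 444, 320 and 330 CPM in the protease-rich members against 145, 115 and 68.5 CPM in the protease-poor members, and Alox15, a 12/15-lipoxygenase, had 145, 97.7 and 82.4 CPM against 9.33, 10.0 and 15.8 CPM. Cebpb had 245, 262 and 211 CPM in the protease-rich members against 93.3, 80.1 and 94.8 CPM in the protease-poor members. Pglyrp1, Grm6, Cd226, Itgb2, E2f2 and Cyp4f18 were likewise among the 12 leading genes. After thinning, with few UMIs left, the fold of Fcer1a was 3.25 in place of 44.4. That of Alox15 was 2.93 in place of 9.26 and that of Ccl3 6.54 in place of 16.9. A group with no UMI left in any library takes a floor of 3 counts in each, which makes the fold smaller. These thinned folds may be set by that floor, and the part of depth in them was not tested.

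Several factors and receptors were lower in the protease-rich members. Kit had 0, 23.4 and 73.3 CPM in the protease-rich members against 121, 200 and 97.4 CPM in the protease-poor members. Part of this Kit lies in the few members with mast cell granule genes described further on, all protease-poor. The 6 in P2 spleen held 5, 8, 2, 9, 4 and 3 of 80 Kit UMIs. In P2 bone marrow 2 such members held 6 and 4 of 37. Their part in the Kit difference was not tested. Myb, a factor of progenitors, had 61.2, 105 and 197 CPM in the protease-rich members against 504, 348 and 411 CPM in the protease-poor members. Lmo4 had 222, 398 and 517 CPM against 952, 914 and 988 CPM. Sox4, Lmo2, Tcf4 and Prtn3 were lower in protease-rich members in each library too. The protease-poor members included cells that barely met the rule. A liver member with 2 Mcpt8 and no Ms4a2 or Gata2 UMI held 30 of the 96 Prtn3 UMIs of its group. A spleen member with the same 3 counts held 18 of 120. A bone marrow member that held 50 of 195 was not near the threshold, with 3 Mcpt8, 9 Prss34, 14 Cpa3 and 4 Ms4a2 UMIs. At 41883 UMIs it was the deepest P2 member. The part of these cells in the differences was not tested. Gata2, Runx1 and Ms4a2 did not pass, with folds of 1.80, 1.11 and 1.46, and G2/M genes had a median log2 fold of 0.25 over 45 tested. Gzmb and Epx were also called lower, and both are carried by a few members: without members that had at least 5 UMIs of Cma1 or Prg2, the fold of Epx was 1.17 in place of 0.0976.

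**Figure D3:**
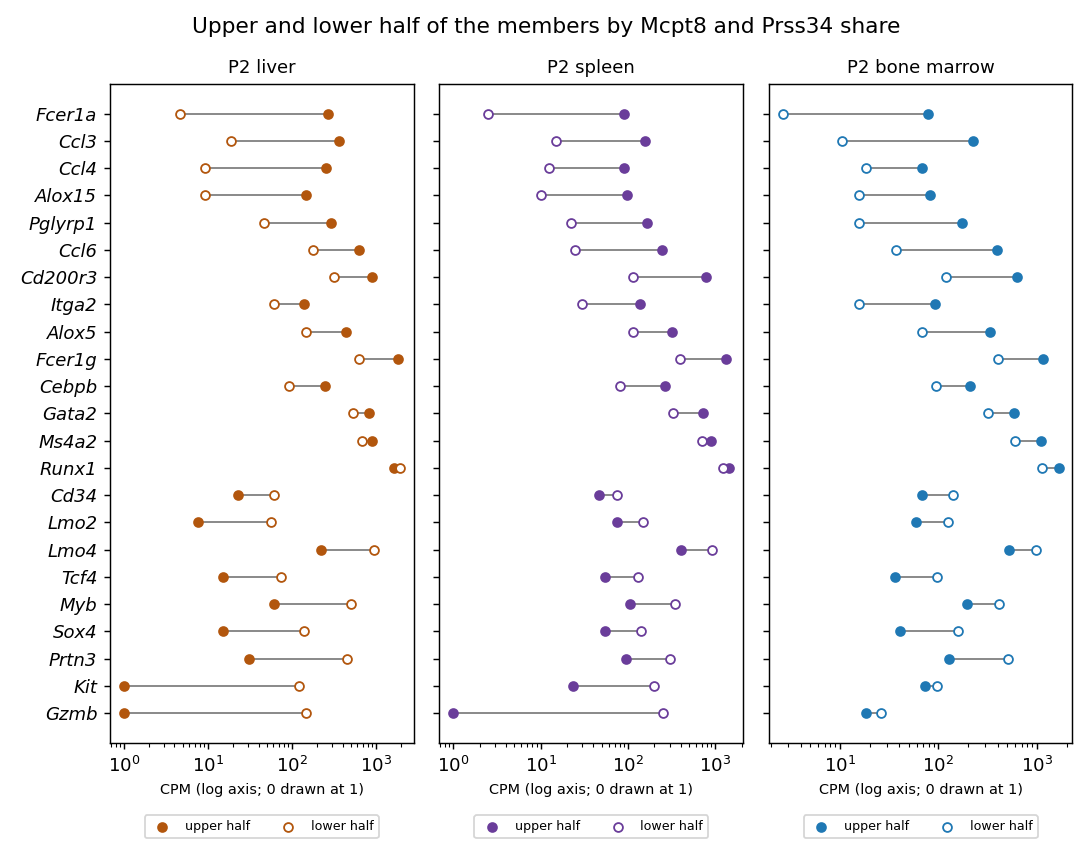
CPM (log axis, 0 drawn at 1) of named genes over the summed cells of protease-rich members (filled) and protease-poor members (open) in each P2 library. Fcer1a through Cebpb lie higher in the protease-rich members of each library, Lmo2 through Kit lie lower, and Runx1 is nearly level.

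A small group of members carried mast cell granule genes. Cma1, the mouse chymase of mast cells, had at least 5 UMIs in 7 members, 6 in P2 spleen and 1 in P2 bone marrow. The 6 spleen members had 16, 18, 25, 20, 16 and 6 Cma1 UMIs, and all 6 also had at least 8 Gzmb UMIs (granzyme B). They had 2 to 20 Mcpt8 UMIs, no Prss34 UMI, and 11 to 34 Cpa3 UMIs. Their Kit counts were 5, 8, 2, 9, 4 and 3 UMIs. A liver member with 31 Gzmb, 7 Kit, 13 Cpa3 and 5 Mcpt8 UMIs and a bone marrow member with 10 Gzmb, 6 Kit, 10 Cpa3 and 4 Mcpt8 UMIs had no Cma1, Prss34 or Mpo UMI.

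The bone marrow member differed from these. It had 303 Cma1, 120 Mcpt4, 74 Tpsb2, 52 Cpa3 and 15 Prss34 UMIs in a total of 3406, and no Mcpt8 or Gzmb UMI. It held all Tpsb2 UMIs of the P2 tissue members. Over the 7 cells the median Kit count was 4.00 UMIs, against 0 in the other 182 P2 members, and the median Mcpt8 count was 11 against 37.0. Cma1 was not limited to members: 14 kept cells of P2 spleen had at least 5 UMIs, of which 6 were members, and members held 13.6% of its UMIs there.

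Eosinophil granule genes were held by other members. Prg2 (major basic protein) had at least 5 UMIs in 5 members, with 14 and 170 UMIs in P2 liver, 85 and 75 in P2 spleen and 55 in P2 bone marrow. None of these had a Cma1 or Gzmb UMI, and all 5 had Prg3 UMIs (7 to 21) and Epx UMIs (1 to 17). Of 10 testable eosinophil genes 6 were called higher in members, and for Prg2, Prg3 and Ear2 the calls rest on at most 3 positive members per library. Siglecf, a lectin of eosinophils, was seen in 3, 11 and 19 members, and Alox15 in 13, 20 and 16. Prg2 was carried by 17, 23 and 25 kept cells at 5 UMIs, most of them outside the members.

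**Figure D4:**
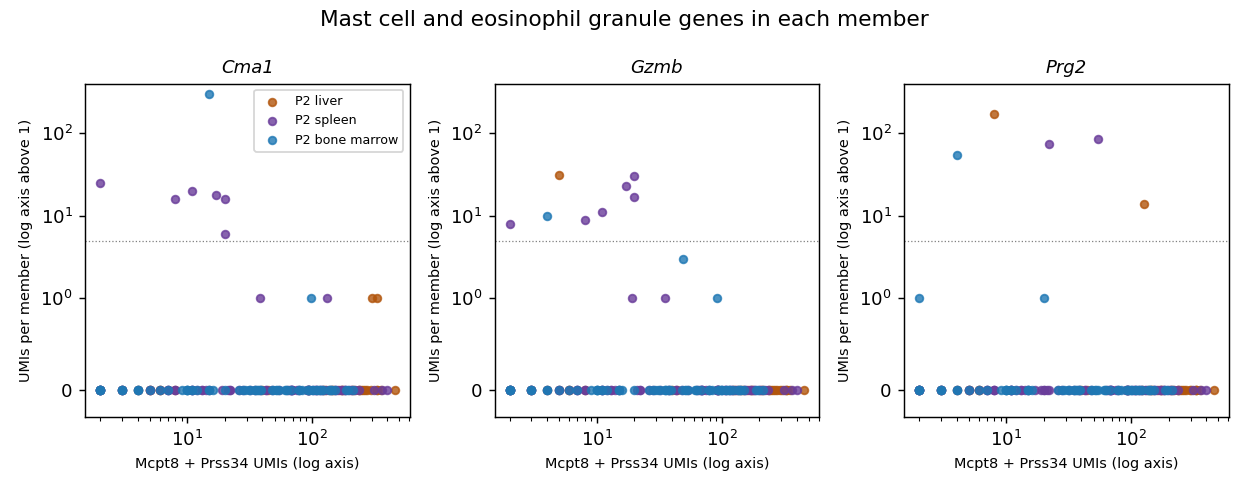
Each point is 1 P2 member, with its Mcpt8 and Prss34 UMIs on the x axis (log) and its UMIs of Cma1, Gzmb or Prg2 on the y axis (log above 1), and the dotted line marks 5 UMIs. Most members lie at 0 for all 3 genes; 7 lie above the line for Cma1 and 5 for Prg2.

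The same genes led the ranking by variance over mean of UMI counts, with members thinned to 2000 UMIs. Cma1, Mcpt4, Tpsb2 and Prg2 ranked from 1 to 4, at 140, 65.0, 38.0 and 34.8. The first 3 ranks rest on 1 bone marrow member, which held 79.5%, 98.5% and 100% of the thinned UMIs. Within P2 spleen members Cma1 had 8.13 and Mcpt4 had 1.00. Mcpt8 and Prss34 ranked 6 and 8, at 18.1 and 16.4, with UMIs in 163 and 134 of 189 members after thinning. Ifitm1, an interferon-inducible membrane protein, had 8.13, and Ccl6 had 7.92. Histone genes such as Hist1h1b, at 7.31, and Malat1, at 4.65, were also among the 20 most variable genes.

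Between P2 liver and P2 bone marrow members few genes differed. Of 3488 tested, 47 were at least 2-fold higher in liver members, a background of 1.35%, and 39 were at least 2-fold lower, a background of 1.12%. Without each gene's top member, 25 of the 47 and 28 of the 39 stayed past 2-fold. With median-ratio size factors the split was 33 higher and 57 lower. Of the 17 testable basophil genes 6 were higher and none was lower, among them Mcpt8 and Prss34 of the rule, 4 of the 6 without the top member, with a median log2 fold of 0.78 against -0.00 over all genes. Fcer1a and Ccl4 were also among the genes higher in protease-rich members.

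Il6 had the largest fold among genes that stayed past 2-fold without their top member, with 142 CPM (105 to 188) in liver members against 33.4 (20.4 to 51.6) in bone marrow members. Prg2 had a larger fold, 5.60, which was 0.443 without its top liver member. Ms4a3 had 252 CPM against 65.2 CPM, Fcer1a 104 against 30.1 CPM and Ccl4 101 against 36.8 CPM. Lat, not among the 10 highest, had 116 CPM against 48.5 CPM. For Il6 and Fcer1a 1 liver member held 30.6% and 36.1% of the UMIs, and without the top member the folds were 3.07 and 2.28 in place of 4.25 and 3.47. Of the 47 genes, 10 also differed at least 2-fold in the same direction between the rest of the cells of the 2 libraries. Fcer1a is not among these: at 0.225 against 0.0312 CPM in the rest, it had fewer than the 50 UMIs required.

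Among genes lower in liver members, Ctla2a had 11.6 CPM in liver members against 114 CPM in bone marrow members, and Adgrl4 had 26.1 CPM against 159 CPM. Both differed alike in the rest of the cells, with 51.9 against 273 CPM and 82.9 against 439 CPM. Mrps10 had 17.4 CPM in liver members against 76.9 CPM in bone marrow members, while the rest had 79.9 against 96.0 CPM. Cd34, a progenitor surface protein, had 46.4 CPM against 114 CPM, and Lmo2 37.7 CPM against 100 CPM, with 62.6 against 151 CPM and 185 against 290 CPM in the rest.

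Between P2 spleen and P2 bone marrow members, 45 of 4355 genes were at least 2-fold higher in spleen members, a background of 1.03%, and 31 were at least 2-fold lower, a background of 0.712%. Without each gene's top member, 30 of the 45 and 18 of the 31 stayed past 2-fold. With median-ratio size factors the split was 65 higher and 23 lower. None of 16 basophil genes, 15 IgE receptor genes and 7 cytokine genes was called in either direction, with median log2 folds of 0.19, 0.17 and 0.02. Of the 45 genes, 21 were also at least 2-fold higher in the rest of the spleen cells.

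Most leading genes of the spleen members rested on few cells. Cd74, a chaperone of antigen presentation, had 105 CPM in spleen members against 1.67 CPM in bone marrow members, and 1 member held 62 of its 69 UMIs. Gzmb had 153 CPM against 23.4 CPM and Scin 68.7 CPM against 16.7 CPM, and both turned round, to folds of 0.136 and 0.572, when the members with at least 5 UMIs of Cma1 or Prg2 were left out. Car2, an erythroid carbonic anhydrase, had 214 CPM against 60.2 CPM, and 902 against 382 CPM in the rest. Without the cells of highest Scrublet score the fold of Cd74 was 1.30 and that of Car2 1.16. Il18r1, a chain of the interleukin 18 receptor, had 42 UMIs in spleen members against 11 in bone marrow members, a fold of 3.48, and 6.77 against 2.10 CPM in the rest. Genes lower in spleen members included Jun, at 91.6 CPM against 318 CPM, which was also lower in the rest of the spleen cells, at 26.5 CPM against 72.0 CPM. Mecom, a stem cell factor, had 22.9 CPM against 70.2 CPM.

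**Figure D5:**
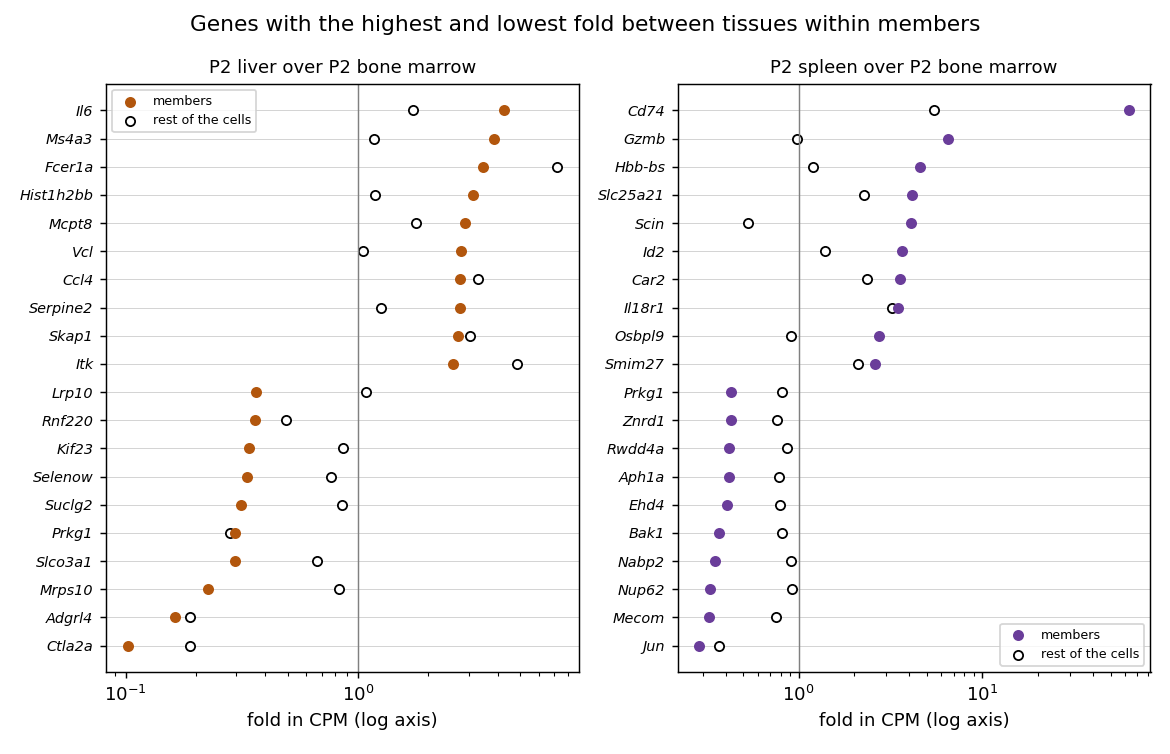
Folds in CPM (log axis) of P2 liver or P2 spleen over P2 bone marrow for the 10 highest and 10 lowest genes within members, with filled points for members and open points for the rest of the cells. For Ctla2a, Adgrl4 and Prkg1 in the liver panel, and for Il18r1 and Jun in the spleen panel, both points lie close together. For Il6, Ms4a3, Gzmb and Scin they lie apart.

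The single E19 member was a deep cell. It had 13513 UMIs, with 19 Mcpt8, 3 Prss34, 10 Cpa3, 7 Ms4a2, 17 Gata2, 8 Hdc and 22 Il6 UMIs, and none of Cd200r3, Slc26a3, Procr or Ly6a. With 1 cell no comparison within members was made between P2 and E19.

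The rule found 11 members in the pups given tamoxifen, 3 of 2722 kept cells in the first tube (0.110%, 0.0227 to 0.322) and 8 of 2473 in the second (0.323%, 0.140 to 0.636). All 11 had both proteases at 2 UMIs or more. Their summed levels were 936 CPM of Gata2, 925 CPM of Cd200r3, 668 CPM of Hdc and 577 CPM of Cyp11a1, against 53.5, 3.52, 6.21 and 0.592 CPM in the rest of both tubes. All 25 named genes that were higher in members of the P2 tissues were again at least 2-fold higher here, as were 242 of the 316 higher genes with at least 50 CPM, where 10.8% of 14986 tested genes were. Of the 10 named lower genes 3 were at least 2-fold lower, where 14.4% of tested genes were. The 4 neutrophil genes among the 10 went the other way over both tubes. S100a9 had 8563 CPM in members against 1936 CPM in the rest, S100a8 4853 against 1292 CPM, Stfa1 1940 against 686 CPM and Cstdc5 1717 against 472 CPM. S100a9 and S100a8 each had UMIs in 1 of the 3 members of the first tube and 6 of the 8 of the second. Procr had no UMI in the 11 members and 29.9 CPM in the rest, and Kit had 52.8 CPM in members against 206 CPM in the rest.

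By cell hashtags, antibody-bound barcodes that name pup and tissue, 7 of the 11 members could be placed. They were 1 of 1390 tdTomato-negative bone marrow cells and 1 of 695 tdTomato-negative spleen cells of pup 2, and 1 of 205 tdTomato-negative bone marrow cells and 4 of 1168 tdTomato-negative spleen cells of pup 1. No member was found among 6 and 28 tdTomato-positive cells of bone marrow and spleen from pup 1, or 27 and 13 from pup 2. With so few positive cells the exact binomial intervals reach 45.9%, 12.3%, 12.8% and 24.7%, so no difference was detectable at this depth. A second way of reading the hashtags, with background subtracted, placed 1 member among 53 tdTomato-positive spleen cells of pup 1 and 1 among 39 of pup 2.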

How the data were processed

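Raw UMI counts per gene and cell for 32285 genes were used as deposited by the authors, made with Cell Ranger 7.0.0 (P2 tissues), 7.1.0 (E19) and 8.0.1 (tubes), per the file headers. The submitters' processing notes name the mm10 build. Cells with at least 1000 genes, 2000 UMIs and at most 10% mitochondrial UMIs were kept. Members were cells with at least 2 UMIs of Mcpt8 or Prss34, at least 1 of Cpa3 or Ms4a2, and none of Cd79a or Elane. The members and gene lists were chosen with earlier results of these data known.

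Counts were summed over cells of a library and divided by the summed UMIs (CPM). Folds are ratios of CPM. Members were set against the rest of the same library, each of 3 P2 libraries weighted equally, and a group at 0 was set to a floor of 3 counts where that made the fold smaller. With 1 library per group no test was run. Intervals are exact Poisson and exact binomial at 95% and cover counting error only. Genes were named by a rule: the 25 with the highest smallest fold over libraries at 50 CPM or more in members, the 10 with the lowest mean fold at 100 CPM or more in the rest, the 10 highest and 10 lowest folds per tissue comparison that held without the top member, genes of the lists, and the 20 most variable. Leading genes of protease-rich and protease-poor members (12 higher, 15 lower) were taken by the same measure, in a comparison added after seeing the data. For shares of cells with a UMI, cells were thinned to 2000 UMIs. Doublets were scored with Scrublet in scanpy 1.11.5, and 0.8% of cells per 1000 barcodes were treated as doublets only in an alternative. Hashtags were called above the 99th percentile of background. Python 3.11.15, scipy 1.17.1 and numpy 2.4.6 were used, and the calling code was checked on simulated counts. Hashtag counts are rows of the tubes' deposited count matrices. The 2 feature barcode samples, whose files list the hashtags and hold no counts, were not used. The planned comparison of P2 bone marrow with E19 members was not made, as E19 had 1 member.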

Additional observations from a re-analysis of the deposited data

Results flagged for a closer look

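Id2, an inhibitor of basic helix-loop-helix factors, differed in direction between tissues. Its fold of members over the rest was 0.163 in P2 liver, 2.31 in P2 spleen and 0.880 in P2 bone marrow. Members had 23.2, 61.0 and 16.7 CPM, against 143, 26.4 and 19.0 CPM in the rest, and 4, 14 and 9 members had a UMI. The difference between tissues was not tested, with 1 library each. In the rest, the liver level was the highest. Among members, the spleen over bone marrow fold was 1.79 in place of 3.65 without the members with at least 5 UMIs of Cma1 or Prg2.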

How the results depend on the processing

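No paired analysis was possible because each tissue and age had 1 library. With at least 1 UMI in place of 2, the shares of members were 1.26% in P2 spleen and 1.47% in P2 bone marrow, and without the exclusion of Cd79a and Elane 1.62% in P2 liver, 1.54% in P2 spleen and 2.05% in P2 bone marrow. With no minimum of UMIs per gene, 878 genes were higher and 953 lower in P2 liver over P2 bone marrow members, and 822 higher and 910 lower in P2 spleen over P2 bone marrow members. With a minimum of 200 UMIs the counts were 6 and 2, and 16 and 2, as fewer genes were tested. With the mean of per-cell CPM, 1109 genes were lower in members than in the rest, 68 in liver and 56 in spleen members than in bone marrow members. Leaving out 1 library gave 1042 to 1115 genes higher and 823 to 901 lower in members, and 133 to 174 higher and 187 to 209 lower in protease-rich than in protease-poor members. Members thinned to 2000 UMIs gave 63 and 42. Thinned to 5000 UMIs, Gata2 was seen in 90.6%, 82.1% and 80.0% of members of P2 liver, P2 spleen and P2 bone marrow, and in 97.1%, 87.2% and 92.8% unthinned. Without members with at least 5 UMIs of Cma1 or Prg2, an alternative chosen after seeing the data, Gzmb and Scin turned to folds of 0.136 and 0.572 in spleen over bone marrow members and Epx to 1.17 in protease-rich over protease-poor members. The cause was not tested. The other 83 values of these counts and shares stayed close to those reported. Of 385 alternative folds of the 35 named genes in members over the rest, 33 moved by more than 1.5-fold and none changed direction. Counts of 34 to 86 members limit single genes to wide intervals, and a missing UMI does not show a missing transcript.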

Other observations

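Immediate early genes were higher in members for 7 of 17 tested and lower for Klf2. Jun had 238, 91.6 and 318 CPM in members of P2 liver, P2 spleen and P2 bone marrow against 48.2, 26.5 and 72.0 CPM in the rest, and Egr1 had 55.1, 13.7 and 26.8 CPM against 6.63, 5.33 and 3.98 CPM. The heat shock genes Hspa1a and Hspa1b had no UMI in any P2 member.

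Hgf, hepatocyte growth factor, was seen after thinning in 47.1%, 50% and 34.8% of members of P2 liver, P2 spleen and P2 bone marrow, against 1.23%, 2.52% and 3.63% of the rest. Of 12 fetal program genes none was higher in members and 2 were lower, Lin28b and Igf2bp2, with summed levels of 264, 264 and 268 CPM in members against 362, 415 and 571 CPM in the rest.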
